A study of Mus musculus with 12 samples.

Results

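The Bcl2 family and the caspase-8 regulator Cflar were followed through cultured mouse liver progenitor cells before and after transformation by mutant H-Ras, with and without the kinase Cdk8 or Cdk19. The genes were listed by name, 10 of the 54146 genes in the count tables, and they fall into 4 roles. The anti-apoptotic members were Bcl2, Bcl2l1, Bcl2l2 and Mcl1, the effector member was Bak1, the BH3-only members were Bcl2l11, Bmf, Bik and Bid, and Cflar acts at the death receptors.

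RNA sequencing covered 12 libraries, 3 for each of 4 groups of BMEL cells, a bipotential line from embryonic mouse liver. In the order used below, the groups were H-RasG12V-transformed Cdk8 -/- cells (Cdk8 KO), H-RasG12V-transformed Cdk19 -/- cells (Cdk19 KO), wild-type cells transformed by H-RasG12V (RasG12V), and wild-type cells without transformation (untransformed). The line was derived from a mouse with floxed Cdk8 alleles, which is therefore the origin of the wild-type groups too, and every group grew exponentially on collagen with serum, insulin, IGFII and EGF. The labels do not say whether a group is a single clone or whether its samples came from separate cultures, and the p-values below therefore rest on a spread between libraries that may be technical only.

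Proteins of the Bcl2 family decide whether the outer membrane of mitochondria is opened during apoptosis. Bcl2, Bcl-xL (the product of Bcl2l1), Bcl-w (Bcl2l2) and Mcl1 keep the pore-forming effectors Bak and Bax in check, and BH3-only proteins such as Bim (Bcl2l11), Bmf, Bik and Bid release that restraint or activate the effectors directly. Cflar encodes FLIP, a relative of caspase-8 without protease activity that limits caspase-8 activation below death receptors. In liver, Mcl1 and Bcl-xL are the members known to be needed for hepatocyte survival, and ERK, which acts downstream of Ras, is known to mark Bim protein for destruction, a step that transcript counts do not read.

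Upstream sequences are shown for the 3 family genes whose transcripts differed in the same direction between each transformed group and the untransformed cells. They are the 250 bases before the most upstream RefSeq start (build GRCm38.p6), 5′ to 3′ on the gene's strand, with matches to FOXO, AP-1, ETS, CRE and E-box motifs in capitals.
Bcl2l11: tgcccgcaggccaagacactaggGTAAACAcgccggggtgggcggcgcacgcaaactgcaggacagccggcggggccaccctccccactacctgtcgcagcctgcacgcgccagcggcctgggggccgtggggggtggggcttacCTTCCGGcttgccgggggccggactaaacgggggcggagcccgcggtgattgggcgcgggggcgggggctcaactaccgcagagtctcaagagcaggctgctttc
Bmf: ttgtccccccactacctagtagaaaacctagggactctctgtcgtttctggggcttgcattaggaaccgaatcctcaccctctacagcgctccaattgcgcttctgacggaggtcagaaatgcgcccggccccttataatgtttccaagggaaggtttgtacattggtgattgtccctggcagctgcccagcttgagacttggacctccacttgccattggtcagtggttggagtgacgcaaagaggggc
Mcl1: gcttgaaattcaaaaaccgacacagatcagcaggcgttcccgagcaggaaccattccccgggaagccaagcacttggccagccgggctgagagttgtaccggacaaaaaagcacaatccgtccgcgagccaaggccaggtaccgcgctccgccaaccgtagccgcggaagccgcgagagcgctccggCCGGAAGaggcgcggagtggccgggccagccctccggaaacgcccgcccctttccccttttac

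The Bcl2l11 window is chr2:128125788-128126037 on the plus strand, the Bmf window chr2:118549687-118549936 on the minus strand and the Mcl1 window chr3:95658471-95658720 on the plus strand. Motifs were searched on both strands as FOXO TGTTTAC, AP-1 TGANTCA, ETS CCGGAAG, CRE TGACGTCA, E-box CACGTG and GC box GGGCGG. A FOXO match began 227 bases before the Bcl2l11 start, a motif found in 3.06% of 27025 mouse promoters of the same length. ETS matches began 105 bases before the Bcl2l11 start and 63 bases before the Mcl1 start, and 7.07% of promoters hold that motif. The AP-1, CRE and E-box letters, present in 6.85%, 1.6% and 6.04% of promoters, were in none of the 9 members' windows. The GC box occurs in 33.0% of promoters, 3 times in the Bcl2l11 window, once in that of Mcl1 and not in that of Bmf. Base composition differed as well, with 72% GC in the Bcl2l11 window, 64.4% in that of Mcl1 and 54% in that of Bmf, against a median of 52% over all promoters. Such matches describe letters and are not shown to be bound. RefSeq promoters were matched for 9 of the 10 genes, all but Bik.

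Library depth was 24823560 to 36879661 gene counts, and levels below are TMM-scaled CPM, which divide a gene's count by the scaled library total. Hras stood at 444 to 456 CPM in Cdk8 KO, 402 to 439 CPM in Cdk19 KO and 509, 537 and 312 CPM in RasG12V cells, against 40.6 to 57.5 CPM in untransformed cells. Cdk8 read 41.3 to 43.8 CPM in Cdk8 KO cells, 50.8 to 56.3 CPM in RasG12V cells and 43.7 to 49.5 CPM in untransformed cells, so that the Cdk8 KO libraries overlapped the untransformed ones (log2 fold change -0.11, adjusted p = 0.325). Cdk19 read 45 to 53 CPM in Cdk19 KO cells, 64.6 to 93.6 CPM in RasG12V cells and 83.4 to 91.6 CPM in untransformed cells. Counts per gene do not test a deleted exon, so these values neither bear out nor go against the knockout labels. RasG12V replicate 3 and untransformed replicate 3 stood apart from their groups: the mean chi-square per gene was 86.9 and 80 between RasG12V replicate 3 and the other RasG12V libraries (4.42 between those), and 52 and 52.4 for untransformed replicate 3 (7.69 between the others). Counts of passing genes are therefore given with and without those libraries, and values without them are given for some members. Of 8 progenitor markers, 7 were detected well enough to test, with Epcam at or below 0.211 CPM in every library, and summed markers of leukocytes, endothelium, erythroid cells and stellate cells reached no more than 7.83 CPM.

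Against untransformed cells, Mcl1 and Bmf fell, and Bcl2l11 and Cflar rose, in all 3 transformed groups, while Bak1 rose in the knockout groups. Bcl2, Bcl2l1, Bcl2l2 and Bid passed the test in none of these comparisons. In counts, 5 of 9 tested members passed in Cdk8 KO cells (3 higher, 2 lower), 5 in Cdk19 KO cells (3 higher, 2 lower) and 4 in RasG12V cells (2 higher, 2 lower), at an adjusted p under 0.05 in edgeR's quasi-likelihood test over 14283 genes. Of all genes tested, 24.4% passed in Cdk8 KO, 25.3% in Cdk19 KO and 23.4% in RasG12V cells, with higher and lower calls in near equal numbers (12.3% and 12.2% in Cdk8 KO, 12.4% and 12.9% in Cdk19 KO, 11.9% and 11.5% in RasG12V cells). The median log2 fold change of the 9 members was 0.00 in Cdk8 KO, 0.16 in Cdk19 KO and 0.11 in RasG12V cells, against medians within 0.014 of 0 over all genes. The 3 comparisons share their untransformed libraries, so their values stand side by side and are not independent of each other. Groups were fully separated, with no overlap between libraries, for 4 members in Cdk8 KO, 5 in Cdk19 KO and 4 in RasG12V cells, against 42.6%, 43.8% and 32.3% of all genes. Without replicate 3 of RasG12V and untransformed cells, 5 members passed in Cdk8 KO (3 higher, 2 lower), 7 in Cdk19 KO (5 higher, 2 lower) and 5 in RasG12V cells (3 higher, 2 lower), where 42.2%, 43.6% and 40.0% of 14493 genes passed.

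**Figure D1:**
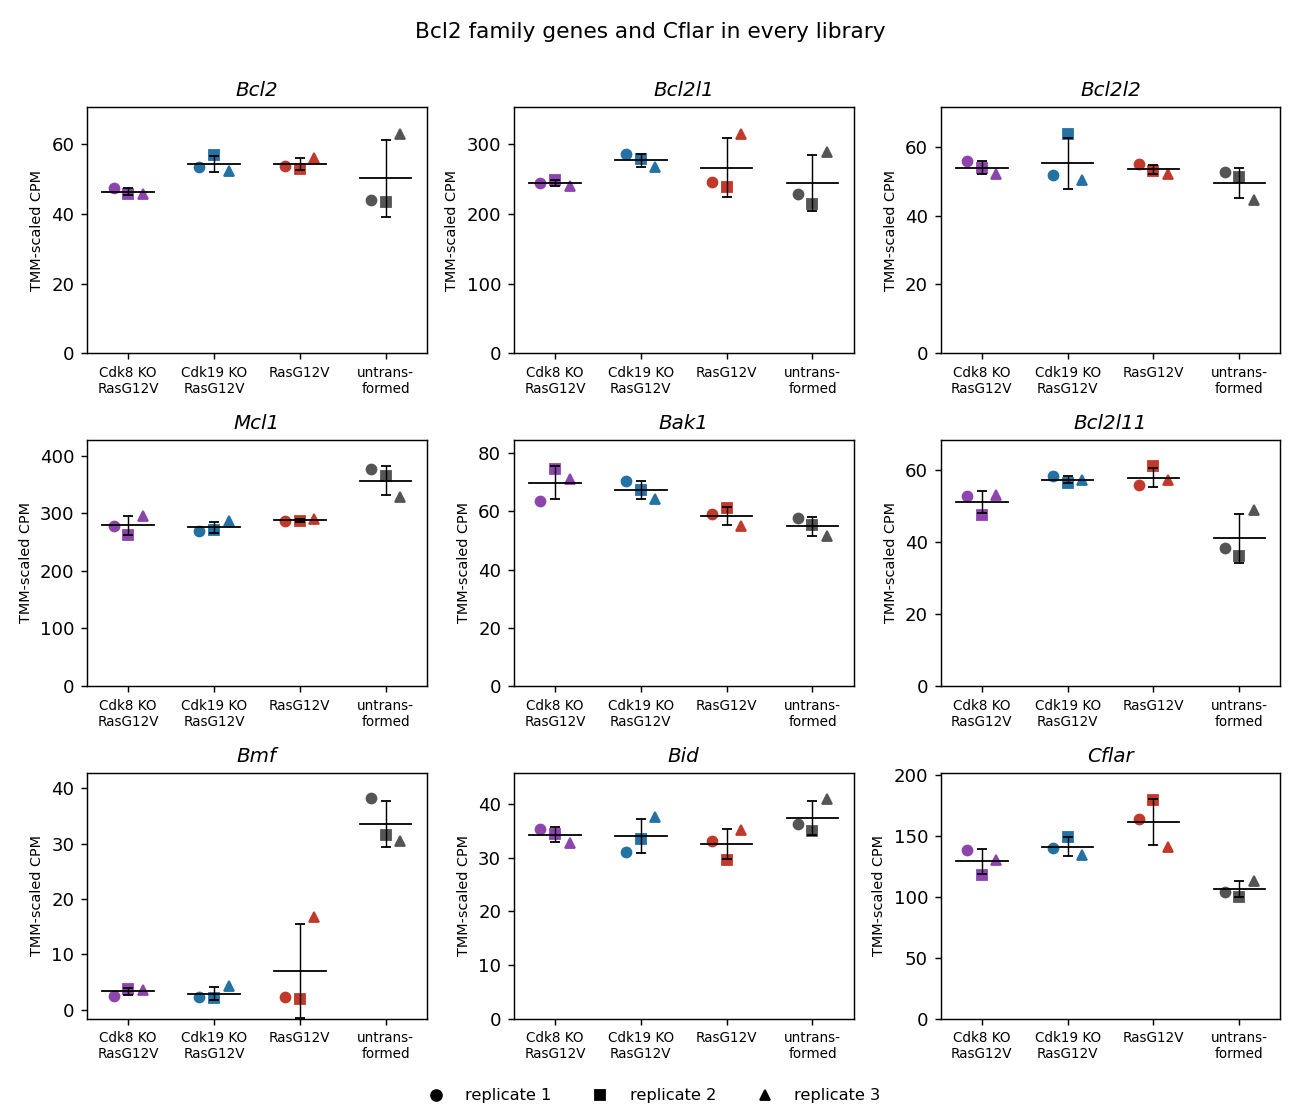
TMM-scaled CPM of the 9 tested genes in every library, by group, with points for replicates 1 to 3, a line at the mean and bars of 1 SD (n = 3). Bmf lies between 30.5 and 38.2 CPM in untransformed cells and at or below 4.28 CPM in every transformed library except RasG12V replicate 3, at 16.7 CPM.

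With all libraries, Mcl1 was the only anti-apoptotic gene that passed the test against untransformed cells. Its transcript encodes a short-lived protein, so that its supply depends on continued synthesis. Mcl1 (ENSMUSG00000038612, chr3:95658788-95663176, plus strand) had 278, 263 and 296 CPM in Cdk8 KO cells, 269, 271 and 287 CPM in Cdk19 KO cells and 287, 287 and 291 CPM in RasG12V cells, against 377, 365 and 329 CPM in untransformed cells. All 9 transformed libraries lay below all 3 untransformed ones. The log2 fold change was -0.36 (SE 0.073, adjusted p = 0.00339) in Cdk8 KO, -0.37 (SE 0.073, adjusted p = 0.00242) in Cdk19 KO and -0.31 (SE 0.073, adjusted p = 0.00855) in RasG12V cells.

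Bcl2l1 (ENSMUSG00000007659, chr2:152780668-152831728, minus strand), the Bcl-xL gene, had 244, 249 and 240 CPM in Cdk8 KO cells, 286, 279 and 267 CPM in Cdk19 KO cells and 245, 239 and 315 CPM in RasG12V cells, against 228, 214 and 289 CPM in untransformed cells. The highest library of RasG12V and of untransformed cells was replicate 3, and the groups overlapped. The difference between RasG12V and untransformed cells, 0.13 on the log2 scale, had a 95% interval of -0.15 to 0.41. In Cdk19 KO cells the value was 0.19 (SE 0.12, adjusted p = 0.298), and it passed without untransformed replicate 3 (0.33, adjusted p = 0.0422). It also passed without replicate 3 of both RasG12V and untransformed cells (0.32, SE 0.059, adjusted p = 0.000188).

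Bcl2 (ENSMUSG00000057329, chr1:106538178-106714274, minus strand), the founding member of the family, had 47.4, 45.6 and 45.8 CPM in Cdk8 KO cells, 53.5, 56.8 and 52.3 CPM in Cdk19 KO cells and 53.8, 53 and 56.1 CPM in RasG12V cells, against 44, 43.5 and 63 CPM in untransformed cells. Untransformed replicate 3 was the highest of the 12 libraries, and it put the untransformed group across the range of the others. With all libraries the log2 difference between RasG12V and untransformed cells was 0.11 (SE 0.12, adjusted p = 0.556), and without replicate 3 of both groups it was 0.27 (SE 0.073, adjusted p = 0.00528). Without untransformed replicate 3 alone, Bcl2 rose in RasG12V (0.31, adjusted p = 0.00677) and in Cdk19 KO cells (0.31, adjusted p = 0.00661).

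Bcl2l2 (ENSMUSG00000089682, chr14:54883377-54888234, plus strand), the Bcl-w gene, averaged 53.9 ± 1.84 CPM in Cdk8 KO, 55.2 ± 7.44 CPM in Cdk19 KO and 53.4 ± 1.43 CPM in RasG12V cells, against 49.5 ± 4.33 CPM in untransformed cells (SD, n = 3 each). Its groups overlapped, and the intervals of its log2 differences from untransformed cells lay between -0.12 and 0.38. It shares 594 of 4462 exon bases (13.3%) with Gm20521 on the same strand, where reads cannot be assigned to either gene.

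Levels of different genes were compared per kilobase of exon, with a length that joins all annotated exons of a gene and may differ from the transcript in use. In CPM, Bcl2l1 exceeded Mcl1 in RasG12V replicate 3 (315 against 291) and in Cdk19 KO replicates 1 and 2 (286 and 279 against 269 and 271). Per kilobase, Mcl1 was the most abundant anti-apoptotic transcript in every library. It made up 53.5%, 51.9% and 55.6% of the summed CPM per kilobase of the 4 genes in Cdk8 KO cells, 49.7%, 49.4% and 52.7% in Cdk19 KO cells and 54%, 54.6% and 49.6% in RasG12V cells, against 62.4%, 62.9% and 54.6% in untransformed cells. Bcl2l1 came next, with mean shares of 35.1% ± 1.51 in Cdk8 KO, 37.9% ± 1.34 in Cdk19 KO and 36.1% ± 3.42 in RasG12V cells, against 30.5% ± 4.61 in untransformed cells (SD, n = 3 each). Untransformed replicate 3, with Mcl1 at 54.6%, fell among the transformed libraries on this measure. Mean shares of Bcl2l2 lay between 6.38% and 7.95% and those of Bcl2 between 3.14% and 3.71%. The ratio of Mcl1 to Bcl2l1 per kilobase was 1.53 ± 0.119 in Cdk8 KO, 1.34 ± 0.0921 in Cdk19 KO and 1.47 ± 0.205 in RasG12V cells, against 2.01 ± 0.421 in untransformed cells (SD, n = 3 each).

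**Figure D2:**
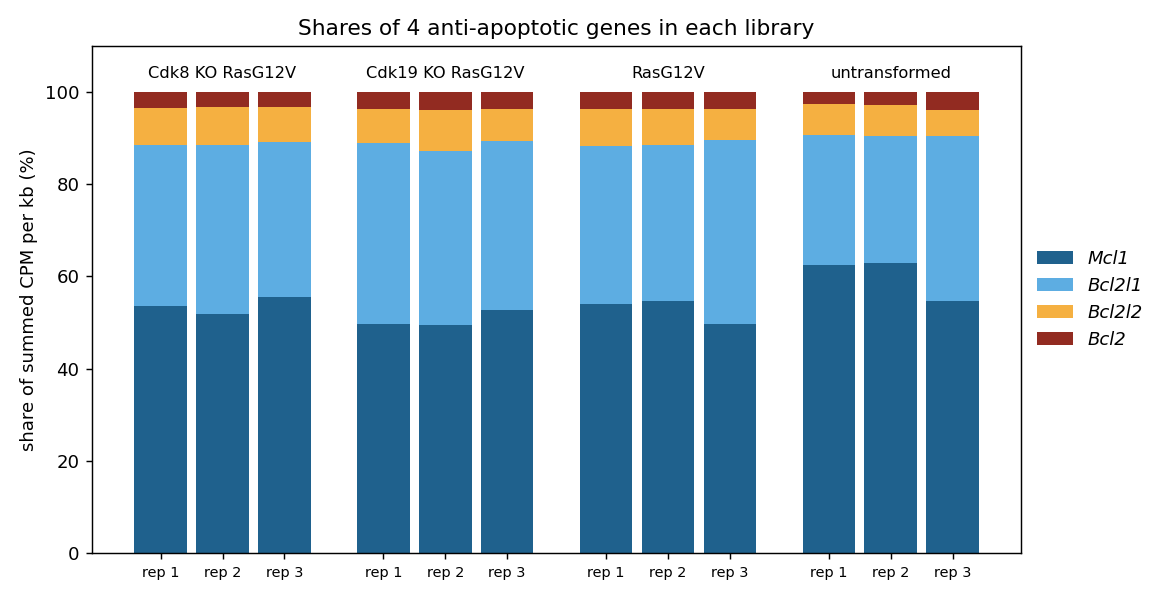
Share of Mcl1, Bcl2l1, Bcl2l2 and Bcl2 in the summed CPM per kilobase of the 4 genes (percent), as a stacked bar for each library, by group. Mcl1 takes 62.4% and 62.9% in untransformed replicates 1 and 2, and 49.4% to 55.6% in the other 10 libraries.

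Bak1 (ENSMUSG00000057789, chr17:27019810-27029009, minus strand) encodes the effector that sits in the mitochondrial outer membrane and forms pores once activated. It had 63.6, 74.6 and 71.2 CPM in Cdk8 KO cells, 70.5, 67.3 and 64.3 CPM in Cdk19 KO cells and 59.1, 61 and 54.8 CPM in RasG12V cells, against 57.7, 55.2 and 51.4 CPM in untransformed cells. Each knockout library was higher than every RasG12V and untransformed library. Against untransformed cells Bak1 rose by a log2 fold change of 0.35 (SE 0.082, adjusted p = 0.0079) in Cdk8 KO and 0.30 (SE 0.082, adjusted p = 0.0179) in Cdk19 KO cells, while the value in RasG12V cells was 0.09 (SE 0.082, adjusted p = 0.484). The Cdk19 KO call was lost on unstranded counts (log2 fold change 0.25, adjusted p = 0.0615), where reads over the opposite-strand gene Ggnbp1 cannot be told apart. The part of Ggnbp1 in that loss was not tested, and forward-strand reads were 0.205% to 0.805% of the stranded Bak1 reads. The call was also lost on leaving out Cdk19 KO replicate 1 (adjusted p = 0.0613) or untransformed replicate 2 (adjusted p = 0.0523). Bax, the other main effector, is not among the 10 genes. It averaged 82.6 ± 5.64 CPM in Cdk8 KO, 82.4 ± 6.19 CPM in Cdk19 KO and 75 ± 3.78 CPM in RasG12V cells, against 80 ± 4.53 CPM in untransformed cells (SD, n = 3 each). Its adjusted p was 0.737, 0.758 and 0.475, in that order. The effector relative Bok, at 1.18 CPM in untransformed cells, rose in Cdk8 KO cells to 2.78 CPM (log2 fold change 1.23, adjusted p = 0.00735). Bok did not pass in Cdk19 KO (0.67, adjusted p = 0.119) or RasG12V cells (0.26, adjusted p = 0.585).

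Among the BH3-only genes, Bcl2l11 rose and Bmf fell. Bcl2l11 (ENSMUSG00000027381, chr2:128126038-128162547, plus strand) encodes Bim, which binds all anti-apoptotic members, and Bmf encodes a BH3-only protein known from cells that lose contact with their matrix. Bcl2l11 had 52.7, 47.4 and 53 CPM in Cdk8 KO cells, 58.3, 56.2 and 57.1 CPM in Cdk19 KO cells and 55.6, 60.9 and 57 CPM in RasG12V cells, against 38.3, 36 and 48.7 CPM in untransformed cells. The Cdk19 KO and RasG12V libraries all lay above the untransformed ones, and Cdk8 KO replicate 2 lay below untransformed replicate 3. Bcl2l11 rose by a log2 fold change of 0.32 (SE 0.10, adjusted p = 0.045) in Cdk8 KO, 0.48 (SE 0.10, adjusted p = 0.00475) in Cdk19 KO and 0.50 (SE 0.10, adjusted p = 0.00438) in RasG12V cells. The Cdk8 KO call was lost in 7 of the 12 fits that each left out 1 library (Cdk8 KO replicate 1 or 3, any Cdk19 KO replicate, untransformed replicate 1 or 2), with values of 0.22 to 0.46 over all 12. It held without replicate 3 of both RasG12V and untransformed cells (0.45, SE 0.074, adjusted p = 5.63e-05). The ratio of Bcl2l11 to Mcl1 per kilobase was 0.0806, 0.0767 and 0.0764 in Cdk8 KO cells, 0.0922, 0.0883 and 0.0847 in Cdk19 KO cells and 0.0824, 0.0904 and 0.0835 in RasG12V cells, against 0.0433, 0.0419 and 0.063 in untransformed cells. No transformed library reached down to an untransformed one in this ratio. The ratio sets a gene that rose over a gene that fell in these same libraries. Its separation therefore follows in part from those results and adds no support to them.

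Bmf (ENSMUSG00000040093, chr2:118528757-118549687, minus strand) showed the widest range of the 10 genes. It had 2.58, 3.8 and 3.59 CPM in Cdk8 KO cells, 2.33, 2.18 and 4.28 CPM in Cdk19 KO cells and 2.29, 1.92 and 16.7 CPM in RasG12V cells, against 38.2, 31.6 and 30.5 CPM in untransformed cells. In counts, the RasG12V libraries held 63, 47 and 554 reads and the untransformed libraries 1078, 1022 and 1024. RasG12V replicate 3 thus stood between the other transformed libraries and the untransformed ones, and overlapped with no untransformed library. Bmf fell by a log2 fold change of -3.32 (SE 0.64, adjusted p = 0.00246) in Cdk8 KO, -3.51 (SE 0.66, adjusted p = 0.00185) in Cdk19 KO and -2.23 (SE 0.61, adjusted p = 0.0185) in RasG12V cells. Without RasG12V replicate 3 the RasG12V value was -3.97 (adjusted p = 2.24e-07), and without replicate 3 of both groups it was -4.06 (SE 0.27, adjusted p = 7.36e-08), or 16.6-fold lower. The RasG12V call was lost without RasG12V replicate 1 (-1.81, adjusted p = 0.0529) and without untransformed replicate 1 (-2.13, adjusted p = 0.0552).

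Other measures moved with Bmf. RasG12V replicate 3 also had the lowest Hras level of its group, 312 CPM against 509 and 537 CPM in replicates 1 and 2. The summed level of 5 hepatocyte markers (4 tested, with Serpina1a at 0 in every transformed library and Alb at 0 in Cdk19 KO cells) was 308 to 343 CPM in Cdk8 KO, 279 to 328 CPM in Cdk19 KO and 287, 284 and 505 CPM in RasG12V cells, against 406 to 507 CPM in untransformed cells. Nearly all of that sum was Hnf4a, at 287, 283 and 502 CPM in RasG12V against 445, 405 and 386 CPM in untransformed cells. The other detected markers of the list were low in RasG12V replicate 3, with Ttr at 0.572 CPM, Apoa1 at 2.29 CPM and Alb at 0.0602 CPM, against 9.09 to 44.5 CPM, 8.64 to 15.9 CPM and 1.73 to 4.12 CPM in untransformed cells. They were lower still in RasG12V replicates 1 and 2, with Ttr at 0.0728 and 0.0817 CPM, Apoa1 at 0.146 and 0.409 CPM and Alb at 0. Replicate 3 thus lay between its group and the untransformed cells, on 19 reads of Ttr, 76 of Apoa1 and 2 of Alb. The part of these differences in the Bmf result was not tested, and in bulk RNA fewer cells of a type and less RNA per cell cannot be told apart. Bmf and Cflar had the largest SD of group means among the members (1.57 and 0.254 on the log2 scale), and for them the protein-coding genes with the most similar profile over the 12 libraries were looked up among 11963. For Bmf these were Rida (Pearson r = 0.991), Hadh (r = 0.99) and Tmem176a (r = 0.989), all described over libraries that share groups, depth and scaling.

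Bik and Bid complete the BH3-only genes. Bik (ENSMUSG00000016758, chr15:83526862-83544634, plus strand), whose protein sits mainly in the endoplasmic reticulum, had 0 reads in all Cdk8 KO and RasG12V libraries, 2 reads in Cdk19 KO replicate 3 and 1 read in untransformed replicate 2. It was left out by the filter on low counts, and 0 reads in a library allow up to 0.0813 to 0.121 CPM, by counting error alone. Bid (ENSMUSG00000004446, chr6:120891930-120916853, minus strand), which caspase-8 cleaves to carry a death receptor signal to mitochondria, had 35.4, 34.4 and 32.7 CPM in Cdk8 KO cells, 31.1, 33.5 and 37.5 CPM in Cdk19 KO cells and 33.1, 29.6 and 35.1 CPM in RasG12V cells, against 36.2, 34.9 and 40.9 CPM in untransformed cells. The groups overlapped, and the interval of its log2 difference between RasG12V and untransformed cells was -0.42 to 0.03.

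Cflar (ENSMUSG00000026031, chr1:58711508-58758884, plus strand) had 138, 118 and 130 CPM in Cdk8 KO cells, 140, 149 and 134 CPM in Cdk19 KO cells and 164, 179 and 141 CPM in RasG12V cells, against 104, 99.7 and 113 CPM in untransformed cells. All transformed libraries lay above the untransformed ones, and the group means ran in the order RasG12V, Cdk19 KO, Cdk8 KO and untransformed. Cflar rose by a log2 fold change of 0.29 (SE 0.10, adjusted p = 0.0467) in Cdk8 KO, 0.41 (SE 0.10, adjusted p = 0.00675) in Cdk19 KO and 0.61 (SE 0.10, adjusted p = 0.000597) in RasG12V cells. That in Cdk8 KO cells was lost in 6 of the 12 fits that each left out 1 library (replicate 1 or 3 of either knockout, untransformed replicate 1 or 2). It held without replicate 3 of both RasG12V and untransformed cells (0.32, SE 0.072, adjusted p = 0.00115). The genes with the most similar profile to Cflar were Osbpl8 (r = 0.966), Tmx3 (r = 0.948) and Itpripl2 (r = 0.937).

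Casp8, the protease that FLIP restrains, averaged 98.7 ± 4.96 CPM in Cdk8 KO, 97.1 ± 3.31 CPM in Cdk19 KO and 94.4 ± 9.59 CPM in RasG12V cells, against 110 ± 5.38 CPM in untransformed cells (SD, n = 3 each), and its difference in RasG12V cells had an adjusted p of 0.076. The ratio of Cflar to Casp8 per kilobase, a pair chosen after its values were seen, was 0.314, 0.263 and 0.319 in Cdk8 KO cells, 0.336, 0.357 and 0.302 in Cdk19 KO cells and 0.362, 0.43 and 0.382 in RasG12V cells, against 0.221, 0.196 and 0.244 in untransformed cells. Every RasG12V library exceeded every knockout library, by a narrow margin at 0.362 against 0.357, and every knockout library exceeded every untransformed one. How often other gene pairs order the groups in this way was not tested, and Cflar alone overlapped between RasG12V and Cdk19 KO cells.

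**Figure D3:**
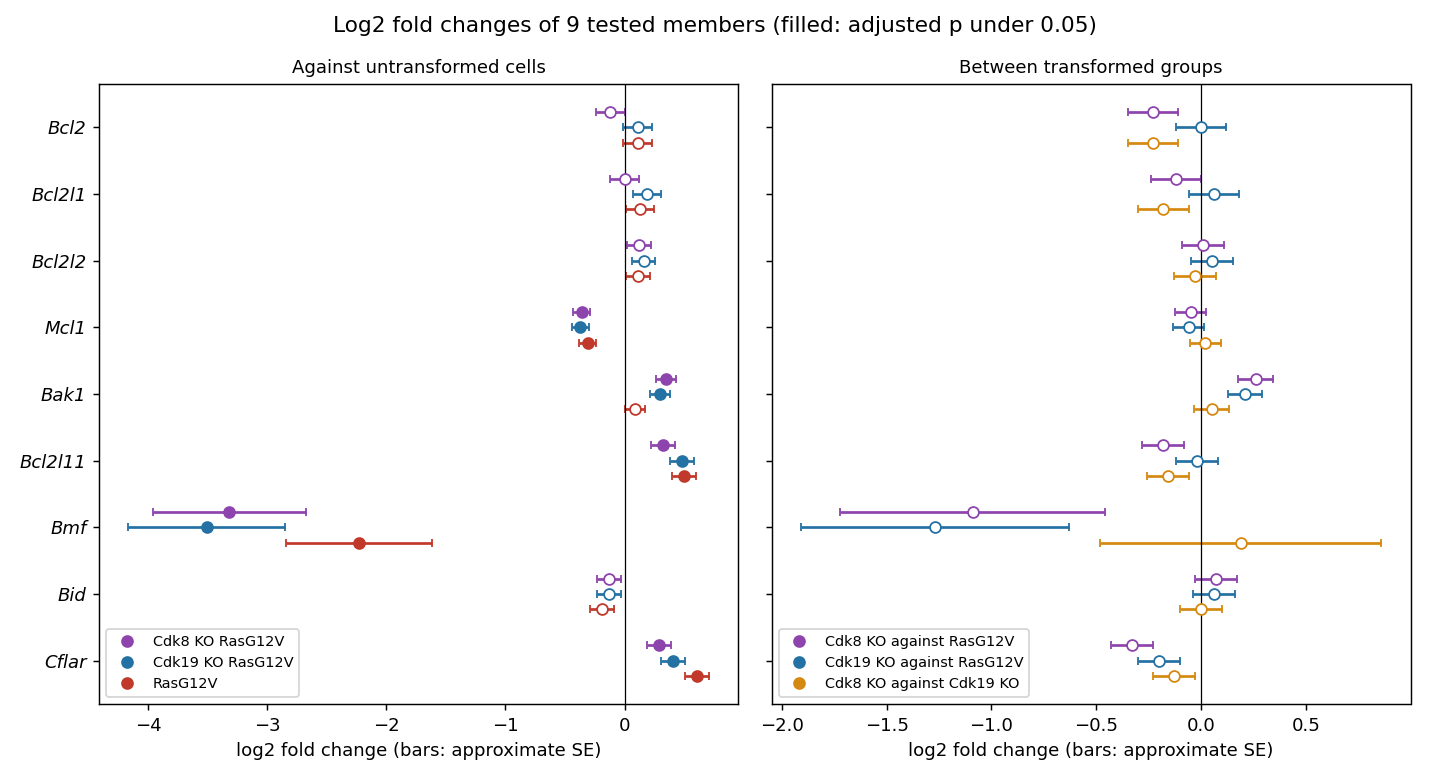
Log2 fold changes of the 9 tested genes against untransformed cells (left) and between transformed groups (right), with bars of 1 approximate SE from edgeR and filled points at an adjusted p under 0.05. Mcl1 and Bmf lie below 0, and Bcl2l11 and Cflar above 0, in all 3 transformed groups, and no point in the right panel is filled.

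Loss of either kinase in RasG12V cells moved no member past the threshold: 0 of 9 passed in Cdk8 KO and 0 of 9 in Cdk19 KO cells against RasG12V cells, where 0.0% and 0.014% of all genes passed. Without adjustment, 2 members had p under 0.05 in Cdk8 KO and 1 in Cdk19 KO cells, as had 6.1% and 7.62% of all genes, and DESeq2 and limma-voom gave 0 passing members in each, with the same unadjusted counts. Cflar was the member with the smallest p in Cdk8 KO cells, with a log2 fold change of -0.33 (95% interval -0.55 to -0.11, adjusted p = 0.661), and its value in Cdk19 KO cells was -0.20 (-0.42 to 0.02, adjusted p = 0.676). Bak1 differed by 0.26 (0.07 to 0.45, adjusted p = 0.712) in Cdk8 KO and 0.21 (0.02 to 0.40, adjusted p = 0.58) in Cdk19 KO cells. These 2 comparisons share the RasG12V libraries. Libraries did not overlap for 4 members in Cdk8 KO cells (Bcl2, Bak1, Bcl2l11 and Cflar), against 12.5% of all genes, and for 1 in Cdk19 KO cells (Bak1), against 14.5%. For Mcl1 the intervals were narrow, -0.22 to 0.12 in Cdk8 KO and -0.23 to 0.10 in Cdk19 KO cells, and for Bmf they were wide, -2.55 to 0.37 and -2.76 to 0.21.

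Leaving out replicate 3 of both RasG12V and untransformed cells brought Cflar past the threshold in both knockouts. It was lower than in RasG12V cells by a log2 fold change of -0.41 (SE 0.071, adjusted p = 0.00613) in Cdk8 KO and -0.28 (SE 0.071, adjusted p = 0.0467) in Cdk19 KO cells, and was the member that passed in each, where 1.59% and 2.01% of all genes passed. Without RasG12V replicate 3 alone the adjusted p of Cflar was 0.142 and 0.316. Bmf turned sign in this fit, to 0.67 (SE 0.29, adjusted p = 0.248) in Cdk8 KO and 0.48 (adjusted p = 0.495) in Cdk19 KO cells, and passed in neither fit.

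Between the knockouts, 0 of 9 members passed, against 0.105% of all genes, and at an unadjusted p under 0.05 there were 0 as well, against 7.19% of all genes. Libraries did not overlap for 3 members, Bcl2, Bcl2l1 and Bcl2l11, which were lower in Cdk8 KO than in Cdk19 KO cells, against 20.7% of all genes without overlap. Without replicate 3 of RasG12V and untransformed cells, Bcl2 (-0.23, SE 0.059, adjusted p = 0.0266) and Bcl2l1 (-0.18, SE 0.052, adjusted p = 0.0454) passed, where 5.32% of all genes did. Their log2 fold changes with all libraries were the same to 2 decimals, -0.23 (adjusted p = 0.77) and -0.18 (adjusted p = 0.883), since neither knockout lost a library.

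**Figure D4:**
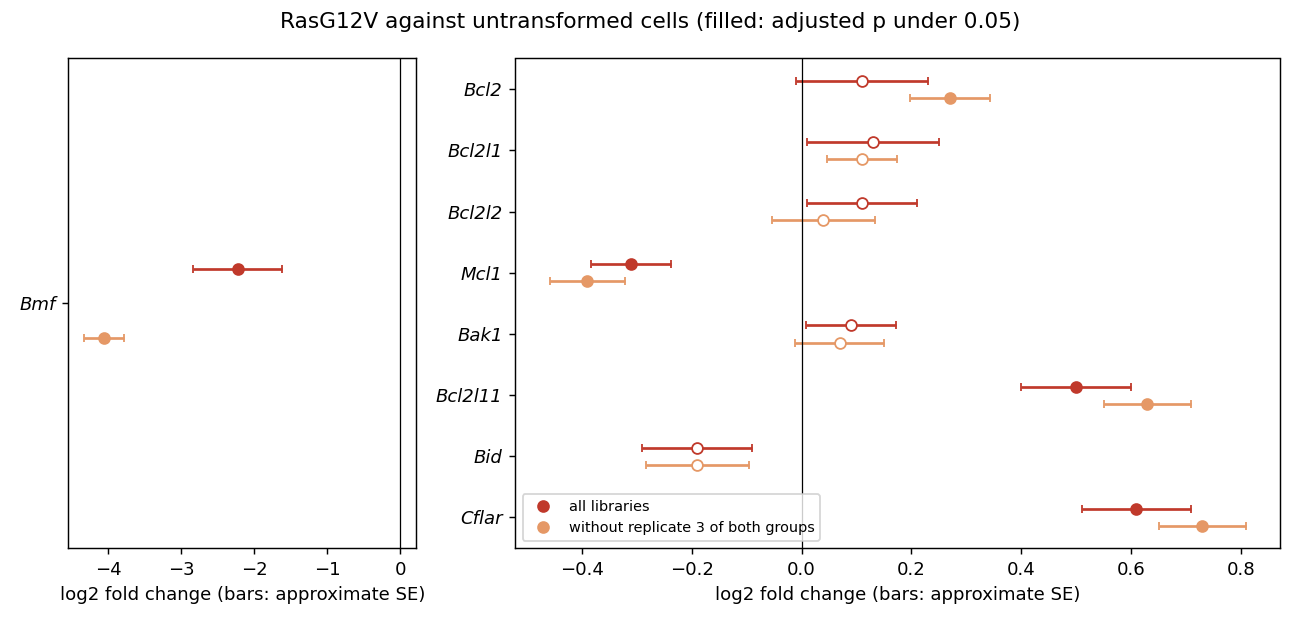
Log2 fold changes of the 9 tested genes in RasG12V against untransformed cells, from all libraries and without replicate 3 of both groups, with bars of 1 approximate SE and filled points at an adjusted p under 0.05. Bmf, on an axis of its own, lies at -2.23 and at -4.06, and Bcl2 is filled without those libraries.

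Around the 10 genes, a list of 53 other cell death genes, of which 44 were tested, was read for the same comparisons. In it 9 genes rose and 4 fell in Cdk8 KO, 8 rose and 3 fell in Cdk19 KO and 7 rose and 6 fell in RasG12V cells, against untransformed cells. That is 29.5%, 25% and 29.5% of the list, near the 24.4%, 25.3% and 23.4% of all genes that passed. Its median log2 fold changes were -0.045, 0.00 and -0.07. Without replicate 3 of RasG12V and untransformed cells the list had 11 genes higher and 11 lower in Cdk8 KO, 12 higher and 11 lower in Cdk19 KO and 10 higher and 10 lower in RasG12V cells, where calls over all genes had grown to 42.2%, 43.6% and 40.0%. The 9 genes left out by the filter held at most 4 reads in any library: the death ligands Fasl and Tnfsf10, the necroptosis kinase Ripk3, the BH3-only gene Hrk, the inhibitor Birc3 and the anti-apoptotic relatives Bcl2l10, Bcl2a1a, Bcl2a1b and Bcl2a1d. The Bcl2a1 genes are near-identical copies whose shared reads go uncounted, so their 0 is uncertain.

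Pmaip1, which encodes the BH3-only protein Noxa, a partner of Mcl1, had 260, 250 and 239 CPM in Cdk8 KO cells, 207, 204 and 198 CPM in Cdk19 KO cells and 271, 265 and 165 CPM in RasG12V cells, against 144, 150 and 134 CPM in untransformed cells. No transformed library of Pmaip1 reached down to the untransformed range. It rose by 0.81 (SE 0.15, adjusted p = 0.0015) in Cdk8 KO, 0.51 (SE 0.15, adjusted p = 0.0217) in Cdk19 KO and 0.71 (SE 0.15, adjusted p = 0.00369) in RasG12V cells on the log2 scale, while Bad, another BH3-only gene, fell by 0.37 (SE 0.11, adjusted p = 0.0256) in RasG12V cells.

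Over all genes tested, 12.3% rose and 12.2% fell in Cdk8 KO, 12.4% and 12.9% in Cdk19 KO and 11.9% and 11.5% in RasG12V cells. The sublists that follow hold few genes and were not tested as sets. Of the other Bcl2-related and mitophagy genes, 3 of 6 rose in each transformed group and none fell. In RasG12V cells these were Bcl2l14 (2.77 CPM in RasG12V against 0.395 CPM in untransformed cells, log2 fold change 2.82, adjusted p = 0.000175), Bcl2l15 (0.924 CPM in RasG12V against 0.213 CPM in untransformed cells, 2.06, adjusted p = 0.0381) and Bnip3 (19 CPM in RasG12V against 5.37 CPM in untransformed cells, 1.82, adjusted p = 0.000213), a mitophagy receptor. The Bcl2l15 libraries overlapped, with 1.38, 1.27 and 0.12 CPM in RasG12V cells against 0.248, 0.124 and 0.268 CPM in untransformed cells, and its log2 fold change was 2.82 (adjusted p = 1.6e-05) without replicate 3 of both groups. Among 11 death receptor genes tested, 2 rose and 4 fell in RasG12V cells. The necroptosis effector Mlkl rose (2.64 CPM in RasG12V against 0.786 CPM in untransformed cells, 1.73, adjusted p = 0.000178), as did the TRAIL receptor Tnfrsf10b (0.26, adjusted p = 0.0255). The death receptors Fas (6.22 CPM in RasG12V against 10.5 CPM in untransformed cells, -0.75, adjusted p = 0.00129) and Tnfrsf1a (-0.29, adjusted p = 0.0153) fell, and so did the adaptors Fadd (-0.40, adjusted p = 0.0357) and Traf2 (-0.31, adjusted p = 0.0254). Of 4 inhibitor of apoptosis genes tested, Birc2 fell (34.8 CPM in RasG12V against 45.4 CPM in untransformed cells, -0.38, adjusted p = 0.0183). Mlkl, Bcl2l14, Bcl2l15, Bnip3, Fas, Tnfrsf10b and Birc2 passed in the same direction in both knockouts against untransformed cells. Among 7 regulators of the family, Foxo1 fell in Cdk19 KO cells (-0.31, adjusted p = 0.0112), and none passed in Cdk8 KO or RasG12V cells. Without replicate 3 of RasG12V and untransformed cells, Foxo1 was lower in Cdk8 KO (-0.28, adjusted p = 0.00413), Cdk19 KO (-0.36, adjusted p = 0.000469) and RasG12V cells (-0.24, adjusted p = 0.0243). In that fit 0, 2 and 1 regulators rose in these groups, in the same order.

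**Figure D5:**
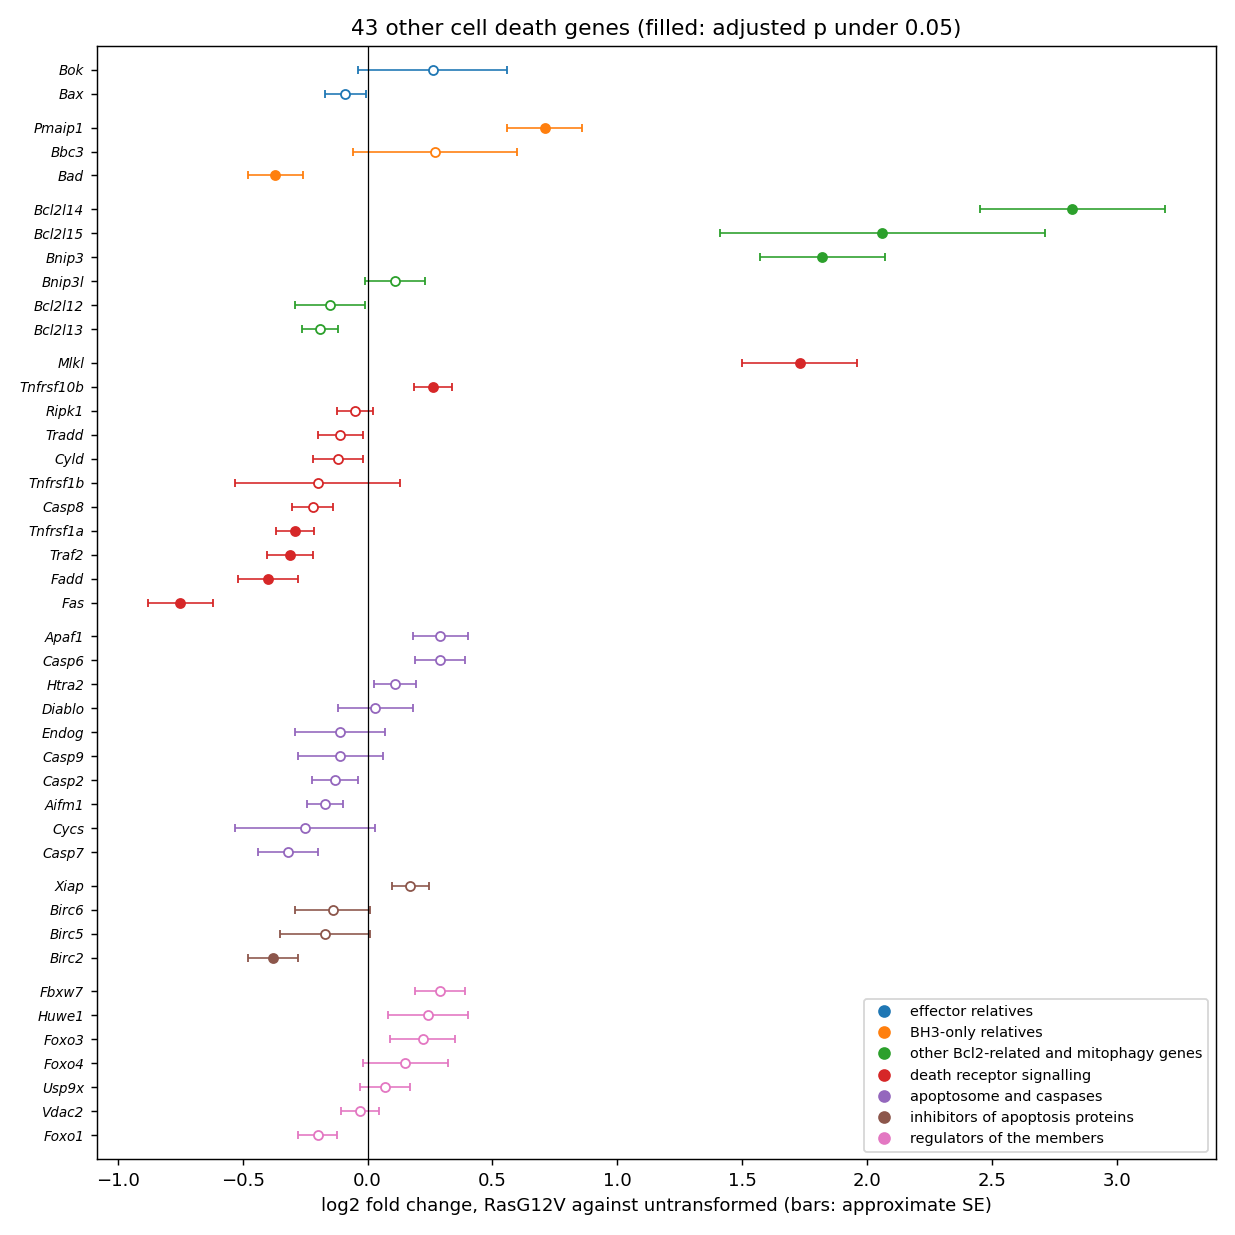
Log2 fold changes of 43 other cell death genes in RasG12V against untransformed cells, grouped by role, with bars of 1 approximate SE and filled points at an adjusted p under 0.05. Bcl2l14, Bcl2l15, Bnip3 and Mlkl lie above 1, and Fas is lowest at -0.75.

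In the knockouts against RasG12V cells, none of the 44 genes passed, and none passed between the knockouts. At an unadjusted p under 0.05 there were 5 in Cdk8 KO and 1 in Cdk19 KO cells, and 1 between the knockouts, against 6.1%, 7.62% and 7.19% of all genes. Without replicate 3 of RasG12V and untransformed cells, Pmaip1 was lower in Cdk19 KO than in RasG12V cells (-0.39, adjusted p = 0.00114) and higher in Cdk8 KO than in Cdk19 KO cells (0.30, adjusted p = 0.00187).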

How the data were processed

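RNA of 12 BMEL cell samples was depleted of ribosomal RNA, per the labels. The authors deposited raw gene counts, 1 table per library, after quality control with FastQC and alignment by STAR 2.6.0a to GRCm38.p6 (submitters' processing notes). Which annotation release they used is not given in the sources used here. The reverse-strand column was used, its total being 24.7 to 28.9 times that of the forward column. Reads without a gene were left out: 2.10% to 3.34% unmapped, 23.0% to 26.3% mapping to several places, 4.31% to 5.85% outside genes and 0.963% to 1.04% ambiguous. The rest, 24823560 to 36879661 counts per library, set the precision. Reads carry no molecular identifiers, so floors (3 counts) cover counting error only. Of 54146 identifiers, 54079 matched GENCODE M21, which gave symbols, GRCm38 coordinates and exon lengths.

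In R 4.3.3, edgeR 4.0.16 fitted the counts (TMM scaling after filterByExpr by group, robust glmQLFit, glmQLFTest), all 12 libraries together without a block, with Benjamini-Hochberg adjustment over 14283 genes at 0.05. Standard errors are approximate, the absolute log2 fold change over the square root of F, and 95% intervals use a t quantile of 2.306. The fit was tested on simulated data with the same spread for all genes and no outlying libraries. That run does not test changes as small as those of Mcl1 or Cflar. Alternatives were RLE and upper quartile scaling, other filters, DESeq2 1.42.0, voom in limma 3.58.1, unstranded counts, only the groups compared, a replicate block, and left-out libraries. All 10 members are named, together with up to 8 passing genes of the 53-gene list per comparison and 3 genes of similar profile (pseudocount 0.5 CPM) for each of Bmf and Cflar. Bcl2l15, Bad, Fadd, Traf2, Tnfrsf10b, Bax, Bok and Casp8 were named outside that rule after their values were seen. A gene of the 53-gene list is counted but not reported here. The members and lists were chosen with earlier results of these data known. Sample numbers were not used to pair the groups. Figures were drawn with matplotlib 3.10.9.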

Additional observations from a re-analysis of the deposited data

How the results depend on the processing

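No member changed direction against untransformed cells where it passed the test, under any alternative run. Members passing in RasG12V against untransformed cells went to 1 (Cflar) when only those groups were fitted; with 1 library left out at a time they numbered 3 to 5, as in Cdk8 KO, and 4 to 7 in Cdk19 KO cells. Genes passing against untransformed cells were 1574 for RasG12V fitted with only the groups compared, and 5799 (RasG12V), 6116 (Cdk8 KO) and 6314 (Cdk19 KO) without both replicates 3; leaving out 1 library gave 2359 to 4808, 2529 to 4881 and 2649 to 5094. Without both replicates 3, passing members were 1 in Cdk8 KO and 1 in Cdk19 KO against RasG12V cells and 2 between the knockouts. Genes passing in Cdk8 KO against RasG12V cells were 16 with no filter, 30 with DESeq2, 1 with a replicate block, 231 without both replicates 3 and 0 to 3 with 1 library left out. In Cdk19 KO against RasG12V cells they were 84 with no filter, 66 with DESeq2, 1 with only those groups, 291 without both replicates 3 and 0 to 21 with 1 library left out. Between the knockouts they were 108 with no filter, 115 with DESeq2, 496 with another of the alternatives, 771 without both replicates 3 and 0 to 133 with 1 library left out. The cause was not tested.

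Bmf in RasG12V cells lost its call with no filter (-2.21, adjusted p = 0.108) and with only the groups compared (-2.22, adjusted p = 0.12), as did Mcl1 (-0.30, adjusted p = 0.0799) and Bcl2l11 (0.50, adjusted p = 0.0532) with only the groups compared. DESeq2 gave no adjusted p for Bmf. Deviations of same-numbered libraries were at most weakly related (r from -0.168 to 0.282, 8 of 18 pairs over 0.1, 5 of 12 libraries most like their own number). Among replicates 3, r ran from -0.0874 (Cdk8 KO and untransformed) to 0.282 (RasG12V and Cdk19 KO), with 0.164 between RasG12V and untransformed cells. With the replicate block Cflar in Cdk8 KO against untransformed cells was 0.28 (adjusted p = 0.056). Depth limits Bik, with at most 2 reads in a library.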
